A study of Mus musculus with 12 samples.

Results

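The genes described here encode the non-collagen proteins of connective tissue matrix, with the enzymes, inhibitors and chaperones that build or cut it and 1 receptor of the cells that make it. They were taken from a list of 42 gene symbols, each measured by its brightest probe set. Of the 42 genes 39 were measured, out of 14163 genes tested, and Fbn1, Adamts2 and Loxl2 were not analysed here. Laser capture took the epithelium of the mouse conjunctival fornix, the fold where the lid lining turns over onto the eye, and its RNA was amplified in 2 cycles and hybridized to 12 arrays. The groups were Klf4CN, a conditional knockout of the Kruppel-like factor gene Klf4 sampled at postnatal day 14, and wild type at postnatal days 9, 14 and 20 (PN9, PN14 and PN20), with 3 samples each. All 12 samples were of mixed strain background. Not given in the sources used here are the Cre driver, the deleted part of Klf4 and how many animals gave each sample. P-values therefore measure only how these samples spread, and that spread may be technical.

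Fibroblasts secrete most of these proteins into the stroma beneath an epithelium. Elastin is laid on fibrillin microfibrils and joined by lysyl oxidases to make elastic fibres, small leucine-rich proteoglycans coat and space collagen fibrils, and versican holds hyaluronan and water in young, loose matrix. Matricellular proteins such as thrombospondins, tenascin and the CCN family act on cells more than they bear load, and matrix metalloproteinases and their TIMP inhibitors set how fast matrix is cut. In the growing eye and lid such genes are mostly those of the mesenchyme around the epithelium.

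The 4 promoters printed here are those of Mmp3, which had the largest rise with age, Thbs2 and Ogn, which fell, and Tnc, which differed in Klf4CN. Each run is the 200 bases before the RefSeq transcription start in GRCm38.p6, read 5′ to 3′ on the gene's own strand. Mmp3 lies at chr9:7445622-7445821, + strand. Thbs2 lies at chr17:14694263-14694462, - strand, and Ogn at chr13:49607815-49608014, + strand. For Tnc, with 2 RefSeq starts 79 bases apart, the bases before the later listed start lie at chr4:64046937-64047136, - strand. Capitals mark matches to 4 motifs.
Mmp3: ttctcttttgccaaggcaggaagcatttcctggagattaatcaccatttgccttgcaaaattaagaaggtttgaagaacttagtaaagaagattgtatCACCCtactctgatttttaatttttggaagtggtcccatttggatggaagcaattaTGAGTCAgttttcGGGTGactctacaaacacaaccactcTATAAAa
Thbs2: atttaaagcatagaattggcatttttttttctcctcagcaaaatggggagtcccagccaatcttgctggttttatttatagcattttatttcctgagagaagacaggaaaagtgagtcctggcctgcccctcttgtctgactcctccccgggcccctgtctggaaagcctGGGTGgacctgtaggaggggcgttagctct
Ogn: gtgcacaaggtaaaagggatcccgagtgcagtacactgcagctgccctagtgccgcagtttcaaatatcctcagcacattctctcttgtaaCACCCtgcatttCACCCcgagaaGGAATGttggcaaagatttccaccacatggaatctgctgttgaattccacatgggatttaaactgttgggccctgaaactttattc
Tnc: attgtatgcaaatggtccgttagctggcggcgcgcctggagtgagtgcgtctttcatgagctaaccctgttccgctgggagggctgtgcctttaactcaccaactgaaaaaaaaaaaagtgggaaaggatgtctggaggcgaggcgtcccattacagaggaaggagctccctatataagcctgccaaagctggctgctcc
The motifs searched in those 200 bases were the TATA box TATAAA on the gene strand and, on both strands, the AP-1 motif TGANTCA, the TEAD motif GGAATG and the box CACCC, a core of the sites that Kruppel-like factors bind. The RefSeq windows used here covered 28 of the 42 genes, and 32851 starts in all. TATAAA was in 6.27% of all such windows and in those of 5 genes (Adamts1, Ccn1, Mmp3, Postn and Tnc). TGANTCA was in 5.48% of all windows and in that of 1 gene, Mmp3. GGAATG was in 10.1% of all windows and in those of 3 genes (Ccn1, Mfap2 and Ogn). Of 15 genes with a window that were called lower from PN9 to PN20, only Ogn had it, and others, such as Vcan, fell more. CACCC, the commonest of the 4, was in 45.5% of all windows and in those of 20 genes. A gene was counted if any of its listed starts had the motif, while the percentages count each start. The 2 are therefore unlike measures. In the bases shown for Mmp3, TGAGTCA starts at -46 and TATAAA at -7, counting the base before the start as -1. The bases shown for Tnc hold none of the 4, and its TATAAA match lies before its other start. A match is only a run of letters, and no binding was measured.

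Signals are on the linear scale of the arrays, in arbitrary units that cannot be compared between genes, and log2 changes are on the log2(signal + 16) scale. Replicate arrays correlated with r of 0.9218 to 0.9754, and replicate 3 of Klf4CN gave 0.9321 and 0.9218 with its fellows. A 3′ over 5′ ratio from the beta-actin probe sets, higher in shortened RNA, was 34.9 ± 11.4 at PN9, 19 ± 7.14 at PN14 and 12.7 ± 3.45 at PN20, with 12.7 ± 6.44 in Klf4CN (SD, n = 3). Klf4 itself read 10923, 8815 and 7417 in Klf4CN, against 4385, 6824 and 5285 in wild type at PN14 (log2 change 0.72 ± 0.19, limma adjusted p = 0.22), and since the deleted part is unknown here, its signal does not check the label. Each of 13 epithelial markers had a Present call in every group, and so had each of 14 skeletal muscle and 13 endothelial markers, so the samples were not epithelium alone.

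Most of the matrix genes were lower at PN20 than at PN9 in wild type. Limma called 27 of the 39 lower and 1, the protease gene Mmp3, higher at an adjusted p under 0.05, where 10.8% of all genes were called lower and 13.5% higher. All 7 proteoglycan genes fell, as did all 4 genes of cross-linking and collagen assembly, 7 of 10 elastic fibre genes, 7 of 10 adhesive and matricellular genes and 2 of 7 genes of proteases and inhibitors. The median log2 change of the 39 was -1.21, against 0.02 for all genes. The largest falls were those of Loxl1, a lysyl oxidase, at 5.99-fold (log2 change -2.58 ± 0.28, limma adjusted p = 5.90e-05), Thbs2, thrombospondin-2, at 4.09-fold (log2 change -2.03 ± 0.20, limma adjusted p = 4.75e-05), and Vcan, versican, at 4.04-fold (log2 change -2.01 ± 0.28, limma adjusted p = 0.000341). The PN9 and PN20 arrays did not overlap for 29 members that were lower and 1 that was higher, where this held for 18.5% and 25.2% of all genes.

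**Figure D1:**
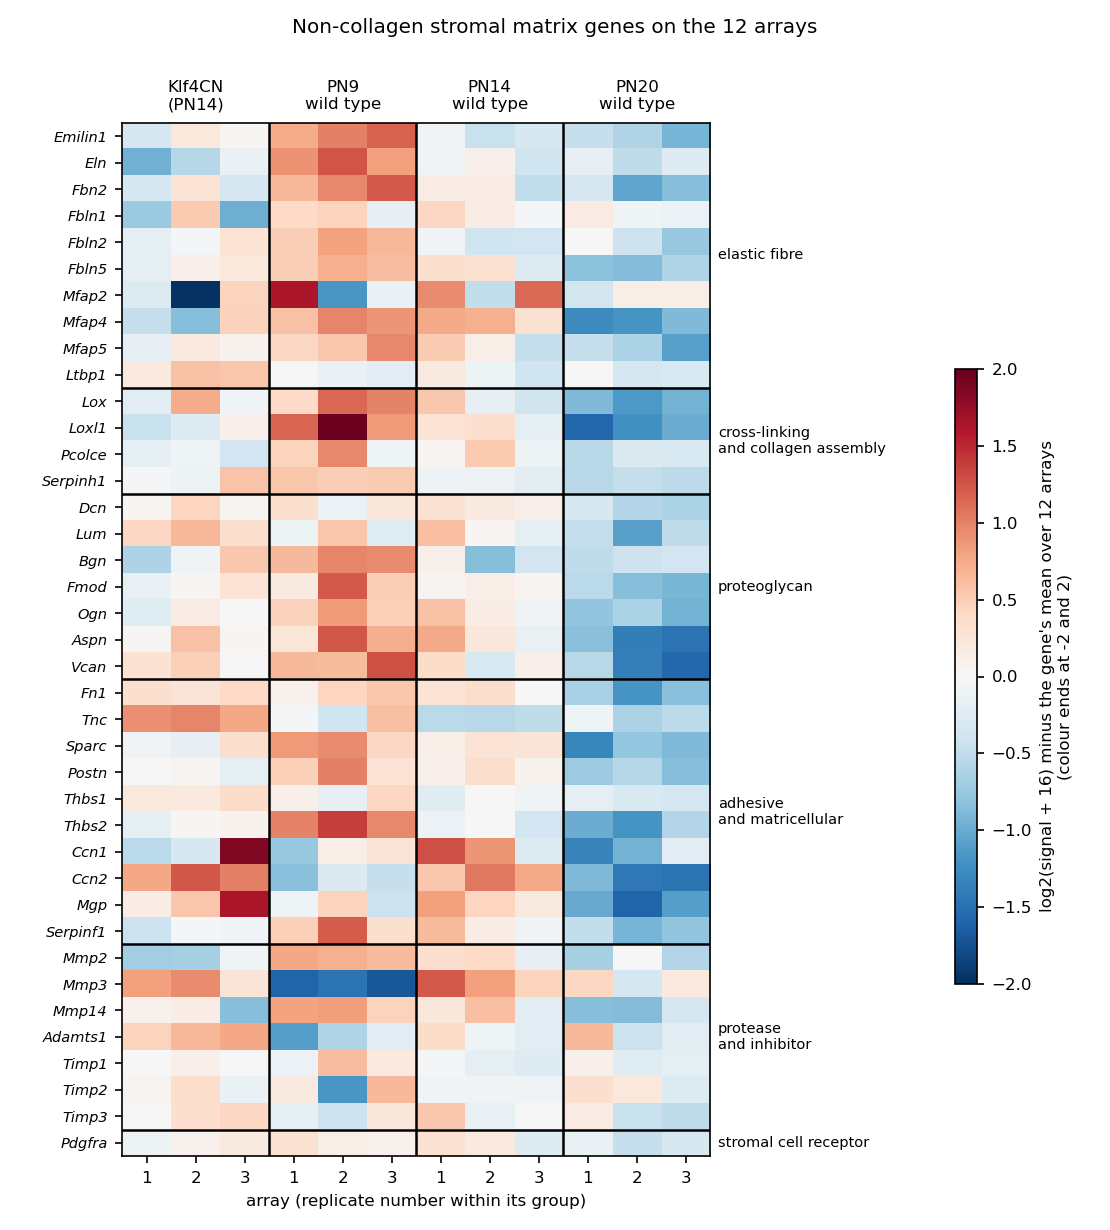
Heat map of the 39 measured genes (rows, grouped by role) on the 12 arrays (columns, grouped as Klf4CN and wild type at PN9, PN14 and PN20), with colour for log2(signal + 16) minus the gene's mean over the 12 arrays, the scale ending at 2 on either side. Most rows are red at PN9 and blue at PN20, while Mmp3 is blue on the 3 PN9 arrays and Tnc is red on the 3 Klf4CN arrays.

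Both steps of age held calls. Between PN9 and PN14, 8 of the 39 fell and 2 rose (limma adjusted p under 0.05), against 2.66% lower and 4.34% higher among all genes. Between PN14 and PN20, 10 fell and 0 rose, against 0.678% lower and 0.671% higher (1.35% in all). Limma's F over the 3 ages called 26, against 20.1% of all genes. At an unadjusted p under 0.05 in limma, 24 of the 39 were lower and 0 higher over that later step, which 8.28% and 8.61% of all genes reached. Loxl1 was called at both steps, lower each time, and Ccn2 was called at both, higher over the earlier and lower over the later. The median log2 change was -0.41 over the earlier step and -0.74 over the later. The test of the later step against the earlier called 2 of the 39, Ccn2 and Mmp3, both lower, against 0.0918% of all genes lower, 0.0777% higher and 0.169% in all. For the other 37, a call at 1 step and none at the other is not a tested difference in timing. The comparisons share the PN14 arrays, so a high or low PN14 array moves both steps in opposite ways. For 8 genes (Emilin1, Fbln5, Fmod, Loxl1, Serpinh1, Sparc, Thbs2 and Vcan) every PN9 array lay above every PN14 array and every PN14 array above every PN20 array, an order that 2.37% of all genes showed.

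The number of calls at each step rested on single arrays. Leaving out PN9 replicate 1 or PN14 replicate 3 gave 6 calls over the earlier step, PN14 replicate 2 gave 5 and PN9 replicate 2 gave 4. Calls among all genes over the earlier step, 992 with every array, were 304, 696, 391 and 471 in those fits. The later step gave 1 call without PN14 replicate 1, PN14 replicate 2 or PN20 replicate 2, 2 without PN20 replicate 3, 3 without PN20 replicate 1 and 17 without Klf4CN replicate 3. All-gene calls over that step, 191 with every array, moved too, to 17, 53, 2, 27, 29 and 725 in those fits. From PN9 to PN20 the count stayed between 23 and 28 with each array left out, and 23 of its 28 calls held in each of the 12 such fits. Among all genes 2090 to 4336 were called in them, against 3443 with every array. With the actin ratio as a covariate the counts were 3 for the earlier step, 8 for the later and 12 from PN9 to PN20. Of all genes 47, 82 and 235 were called in that fit, against 992, 191 and 3443. The members' median log2 changes were then -0.37, -0.86 and -1.18. From PN9 to PN20 the calls of Aspn, Emilin1, Fbln5, Fbn2, Fn1, Lox, Loxl1, Mfap5, Ogn, Sparc, Thbs2 and Vcan held, and the rest of the 28 ended.

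**Figure D2:**
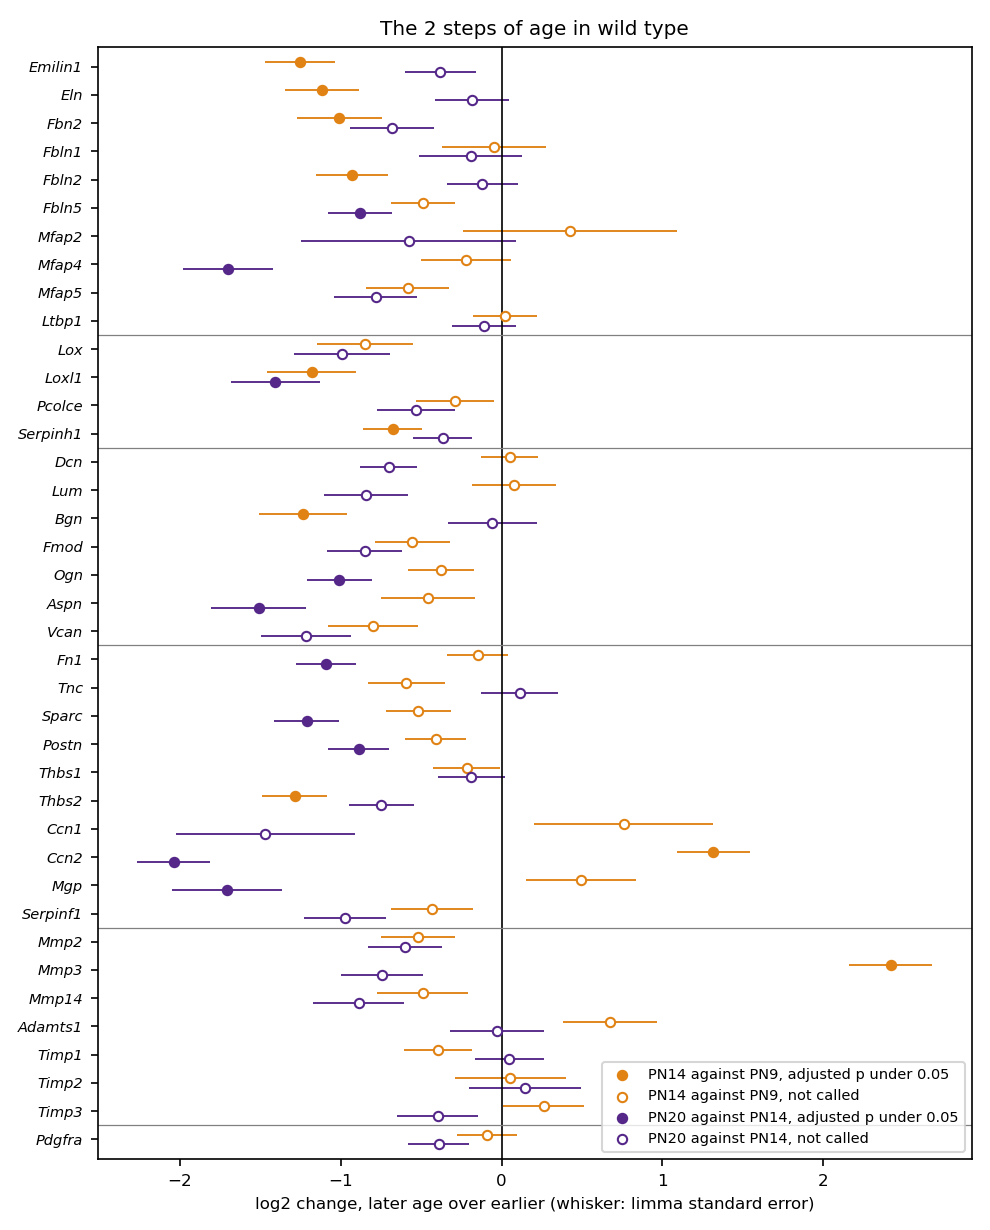
Log2 change of each measured gene (rows, grouped by role) over the 2 steps of age in wild type, PN14 against PN9 in orange and PN20 against PN14 in purple, with whiskers of 1 limma standard error and filled points for an adjusted p under 0.05. The filled points include Bgn, Eln and Emilin1 for the earlier step and Mfap4, Mgp and Fn1 for the later, and Ccn2 and Mmp3 lie above 0 for the earlier.

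Most listed markers of the cells that make this matrix were also lower at PN20 than at PN9. The lists here were chosen with earlier results of these data known, so they are no independent support. From PN9 to PN20, 10.8% of all genes were called lower and 13.5% higher. Of 18 fibroblast identity genes that are not matrix genes, 13 fell from PN9 to PN20 by limma, with a median log2 change of -1.15, and their summed signal was 25004 to 35536 on the PN9 arrays, 17366 to 21369 at PN14 and 11495 to 13151 at PN20. All 18 had a Present call at PN9, while 1 had none at PN14 and 2 had none at PN20. Among them were Twist1, a transcription factor of mesenchyme (log2 change -2.10 ± 0.24, limma adjusted p = 0.000102), and Fstl1, a secreted fibroblast glycoprotein (log2 change -1.60 ± 0.19, limma adjusted p = 0.000125). Of 13 stromal collagen genes 9 fell (median -0.84, summed signal 61363 to 78478, 46232 to 58229 and 38751 to 40490.0 at PN9, PN14 and PN20), and of 10 mural and smooth muscle genes 7 fell (median -1.24, summed signal 11845 to 16306, 10644 to 14073 and 5153 to 6943). Of 13 epithelial markers 5 rose and 1 fell (median 0.79, summed signal 31178 to 49832, 37783 to 55048 and 51077 to 53479). Of 13 endothelial markers 6 fell (median -0.54), of 8 lens and retina genes 3 rose (median 1.92), and of 5 cartilage and bone genes 3 fell and 1 rose (median -1.05). Limma called 0 of 9 melanocyte and Schwann cell genes (median 1.03, 5 higher and 0 lower at an unadjusted p under 0.05), and of 12 myeloid and mast cell genes 2 rose and 2 fell. In such samples fewer stromal cells and less matrix RNA per cell cannot be told apart, and the part that the cell makeup or the actin ratio had in the results was not tested.

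**Figure D3:**
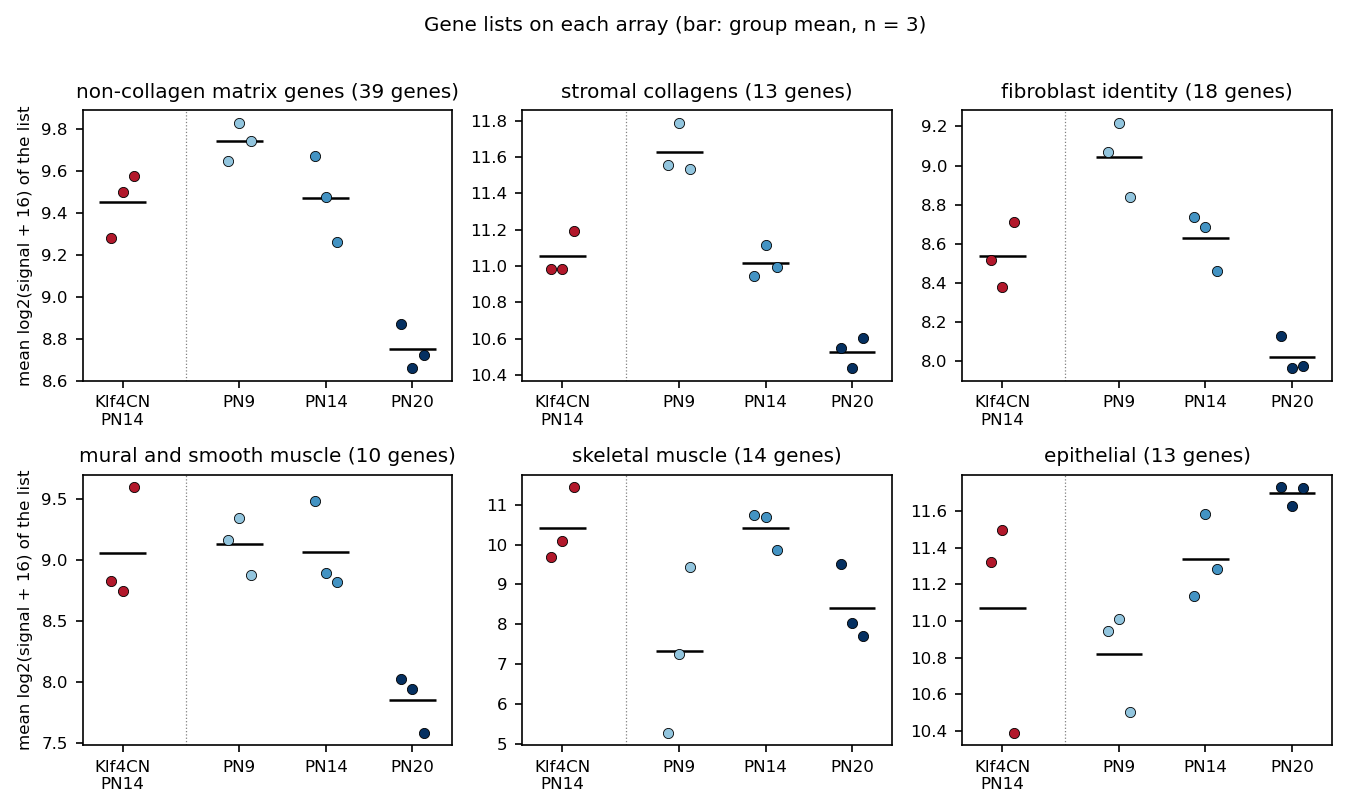
Mean log2(signal + 16) of 6 gene lists on each array (points, with group means as bars), for Klf4CN at PN14 and for wild type at PN9, PN14 and PN20. The matrix, collagen and fibroblast identity lists are lowest on the 3 PN20 arrays, and the skeletal muscle list is higher on each PN14 array than on any PN9 array.

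Among the 10 measured elastic fibre genes, 4 fell between PN9 and PN14, and 2 others between PN14 and PN20. The actin ratio as a covariate ended the earlier calls of Eln, Fbn2 and Fbln2 and the later call of Fbln5. From PN9 to PN20 it ended those of Eln, Fbln2 and Mfap4. Eln, elastin, the core protein of the fibre, read 1440.3, 1856 and 1368 at PN9, 727, 826 and 578 at PN14 and 686, 537 and 638 at PN20. The PN9 arrays lay above all others, and PN14 and PN20 overlapped. Eln fell 2.17-fold (log2 change -1.11 ± 0.23, limma adjusted p = 0.0133) over the earlier step and was within its error over the later (log2 change -0.18 ± 0.23, limma adjusted p = 0.736). Emilin1, a glycoprotein at the border of elastin and microfibrils, read 108, 134 and 153 at PN9, 55.1, 38.7 and 43.7 at PN14 and 38.5, 33.3 and 23.1 at PN20. The ages did not overlap, and at PN20 none of the 3 arrays had a Present call. Emilin1 fell 2.38-fold (log2 change -1.25 ± 0.22, limma adjusted p = 0.00716) over the earlier step, and was at least 3.1-fold lower at PN20 than at PN9 (log2 change -1.64 ± 0.22, limma adjusted p = 0.000269), a bound because PN20 had no Present call. That bound leaves out the error of the fit, whose 95% interval for the log2 change was -2.105 to -1.164. Fbn2, fibrillin-2, the microfibril protein of developing tissue, read 362, 455 and 548 at PN9, 251, 253 and 156 at PN14 and 176, 101 and 118 at PN20, with 1 PN20 array above the lowest PN14 array. It fell 2.01-fold (log2 change -1.01 ± 0.26, limma adjusted p = 0.0366) over the earlier step and 3.22-fold (log2 change -1.69 ± 0.26, limma adjusted p = 0.000643) from PN9 to PN20. Fbln2, a fibulin of elastic fibres and basement membranes, read 141, 179 and 161 at PN9, 92, 68.9 and 69.7 at PN14 and 95.2, 67.9 and 49.7 at PN20, with PN9 above the rest and PN14 and PN20 overlapping. It fell 1.91-fold (log2 change -0.93 ± 0.22, limma adjusted p = 0.026) over the earlier step.

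Mfap4, a glycoprotein bound to microfibrils and elastin, was called over the later step alone. It read 1276, 1681 and 1580.5 at PN9, 1439, 1399 and 1052 at PN14 and 341, 365 and 455 at PN20. The PN9 and PN14 arrays overlapped, and the 3 PN20 arrays lay far below both. Mfap4 fell 3.25-fold (log2 change -1.70 ± 0.28, limma adjusted p = 0.0135) over the later step, the largest change of any elastic fibre gene over a single step. Fbln5, a fibulin that mice need to assemble elastic fibres, read 689.6, 811 and 756 at PN9, 610.2, 603 and 404 at PN14 and 270.1, 259 and 318 at PN20 and fell 1.84-fold (log2 change -0.88 ± 0.20, limma adjusted p = 0.0482) over the later step. Each age lay below the one before. Mfap5, which binds fibrillin, read 721, 793 and 1072 at PN9, 771, 595 and 385 at PN14 and 388, 343 and 245 at PN20, with PN14 overlapping both other ages. It fell 2.58-fold (log2 change -1.37 ± 0.26, limma adjusted p = 0.00212) from PN9 to PN20 without a call at either step. Fbln1, a fibulin of matrix and basement membranes, had a log2 change of -0.24 from PN9 to PN20 (limma adjusted p = 0.638) and Ltbp1, which tethers latent TGF-beta to matrix, -0.09 (limma adjusted p = 0.796), and neither was called. Mfap2, another fibrillin partner, read 1313, 174 and 372 at PN9, 811, 289 and 927 at PN14 and 314, 445 and 453 at PN20, with overlapping ages, on a probe set with no Present call at PN20 or in Klf4CN. Its other kept probe set, Present on 2 Klf4CN arrays, had a log2 change of -1.17 from PN9 to PN20, against -0.15 ± 0.67 on the one used. With 1 array left out, calls over the earlier step ended for Eln without PN9 replicate 2 (adjusted p up to 0.0525), Fbln2 without PN9 replicate 1 or 2 or PN14 replicate 2 or 3 (adjusted p up to 0.089) and Fbn2 without any PN9 array, any PN14 array or PN20 replicate 3 (adjusted p up to 0.106). Calls over the later step ended for Mfap4 without PN14 replicate 1 or 2 or PN20 replicate 1 or 2 (adjusted p up to 0.0683) and Fbln5 without Klf4CN replicate 1, PN9 replicate 1, PN14 replicate 1 or 2 or any PN20 array (adjusted p up to 0.18).

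All 4 measured genes of cross-linking and collagen assembly fell from PN9 to PN20. In the fit with the actin ratio as a covariate Lox and Loxl1 stayed called from PN9 to PN20. The calls of Serpinh1 and Pcolce there ended, as did those of Loxl1 and Serpinh1 at single steps. Loxl1, a lysyl oxidase that mice need to renew elastic fibres, read 989.7, 1729 and 797 at PN9, 529, 549.5 and 383 at PN14 and 135, 179 and 209.6 at PN20. No 2 ages overlapped. It fell 2.26-fold (log2 change -1.18 ± 0.28, limma adjusted p = 0.0238) over the earlier step and 2.65-fold (log2 change -1.41 ± 0.28, limma adjusted p = 0.0289) over the later. Lox, the founding lysyl oxidase of collagen and elastin, read 759, 1303 and 1167 at PN9, 851, 513 and 436 at PN14 and 305, 251 and 292 at PN20. PN14 replicate 1 lay within the PN9 range, and the 3 PN20 arrays were below all others. Lox fell 3.58-fold (log2 change -1.84 ± 0.30, limma adjusted p = 0.000804) from PN9 to PN20, while its steps of -0.85 and -0.99 were not called (limma adjusted p = 0.093 and 0.102). Serpinh1, the collagen chaperone of the endoplasmic reticulum, read 3150.2, 3006 and 3081 at PN9, 1979, 1971 and 1817 at PN14 and 1448, 1533 and 1482 at PN20, with a spread within each age that was small beside the gaps. It fell 1.6-fold (log2 change -0.68 ± 0.18, limma adjusted p = 0.0414) over the earlier step. Pcolce, which speeds the removal of the procollagen C-propeptide, read 4597, 6541 and 3175 at PN9, 3465, 4817 and 3120.0 at PN14 and 2288, 2757 and 2708 at PN20, with PN20 below both other ages. It fell 1.77-fold (log2 change -0.82 ± 0.24, limma adjusted p = 0.0243) from PN9 to PN20. With 1 array left out, calls over the earlier step ended for Loxl1 without PN9 replicate 1 or 2 or any PN14 array (adjusted p up to 0.0775) and Serpinh1 without any PN9 array, any PN14 array or any PN20 array (adjusted p up to 0.12), and over the later for Loxl1 without PN14 replicate 1 or 2 or any PN20 array (adjusted p up to 0.111). The call from PN9 to PN20 ended for Pcolce without PN9 replicate 1 or 2 or any PN20 array (adjusted p up to 0.111).

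All 7 proteoglycan genes fell from PN9 to PN20. Once the actin ratio was a covariate Aspn, Ogn and Vcan stayed called. Bgn, Fmod, Dcn and Lum did not (limma adjusted p = 0.0767, 0.0547, 0.183 and 0.176), and the earlier call of Bgn ended too. Bgn, biglycan, read 3733, 4706 and 4568 at PN9, 2548, 1312 and 1814 at PN14 and 1667, 1780.5 and 1808 at PN20. The PN9 arrays lay above the rest, with PN14 and PN20 overlapping. Bgn fell 2.35-fold (log2 change -1.23 ± 0.28, limma adjusted p = 0.0191) over the earlier step, and the later step of -0.06 was not called (limma adjusted p = 0.938). Aspn, asporin, read 714, 1443 and 1006 at PN9, 1029.5, 707 and 539.8 at PN14 and 328, 221 and 207 at PN20, with PN9 and PN14 overlapping and all PN20 arrays lower. It fell 2.85-fold (log2 change -1.51 ± 0.29, limma adjusted p = 0.0281) over the later step. Ogn, osteoglycin, read 2919, 3818 and 2953 at PN9, 3184, 2348 and 2006 at PN14 and 1212, 1359.6 and 1097 at PN20, in the same arrangement. It fell 2.01-fold (log2 change -1.01 ± 0.20, limma adjusted p = 0.0312) over the later step.

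Vcan, the large hyaluronan-binding proteoglycan, read 526, 516 and 814 at PN9, 426, 263 and 352 at PN14 and 218, 118 and 100 at PN20. The 3 ages did not overlap. Vcan fell 4.04-fold (log2 change -2.01 ± 0.28, limma adjusted p = 0.000341) from PN9 to PN20 and just missed the threshold over the later step (log2 change -1.22 ± 0.28, limma adjusted p = 0.0501). Fmod, fibromodulin, which guides collagen fibril growth, read 3762, 7799.9 and 4672 at PN9, 3452, 3636 and 3431 at PN14 and 2266, 1826 and 1752 at PN20, again with no overlap. It fell 2.65-fold (log2 change -1.41 ± 0.23, limma adjusted p = 0.00095) from PN9 to PN20. Dcn, decorin, which binds collagen fibrils, read 5183, 3792 and 4844 at PN9, 5093, 4680.2 and 4429 at PN14 and 3325, 2752 and 2665 at PN20. Lum, lumican, a proteoglycan that keeps the cornea clear, read 1223, 1945 and 1114 at PN9, 1993, 1354 and 1158 at PN14 and 945, 608 and 919 at PN20. For both, PN9 and PN14 overlapped and PN20 was lower than either. Dcn and Lum had the smallest of the 7 falls from PN9 to PN20, with log2 changes of -0.65 ± 0.18 (limma adjusted p = 0.0169) and -0.76 ± 0.26 (limma adjusted p = 0.0461). Their log2 changes over the earlier step were 0.05 and 0.08, within their errors. With 1 array left out, the earlier call ended for Bgn without PN9 replicate 2 or PN14 replicate 2 (adjusted p up to 0.0823). The later calls ended for Aspn without PN14 replicate 1 or 2 or any PN20 array (adjusted p up to 0.127) and Ogn without PN14 replicate 1 or 2 or any PN20 array (adjusted p up to 0.144). The call from PN9 to PN20 ended for Dcn without PN9 replicate 1 or PN20 replicate 2 or 3 (adjusted p up to 0.0766) and Lum without Klf4CN replicate 1, PN9 replicate 1 or 2, PN14 replicate 2 or any PN20 array (adjusted p up to 0.193).

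**Figure D4:**
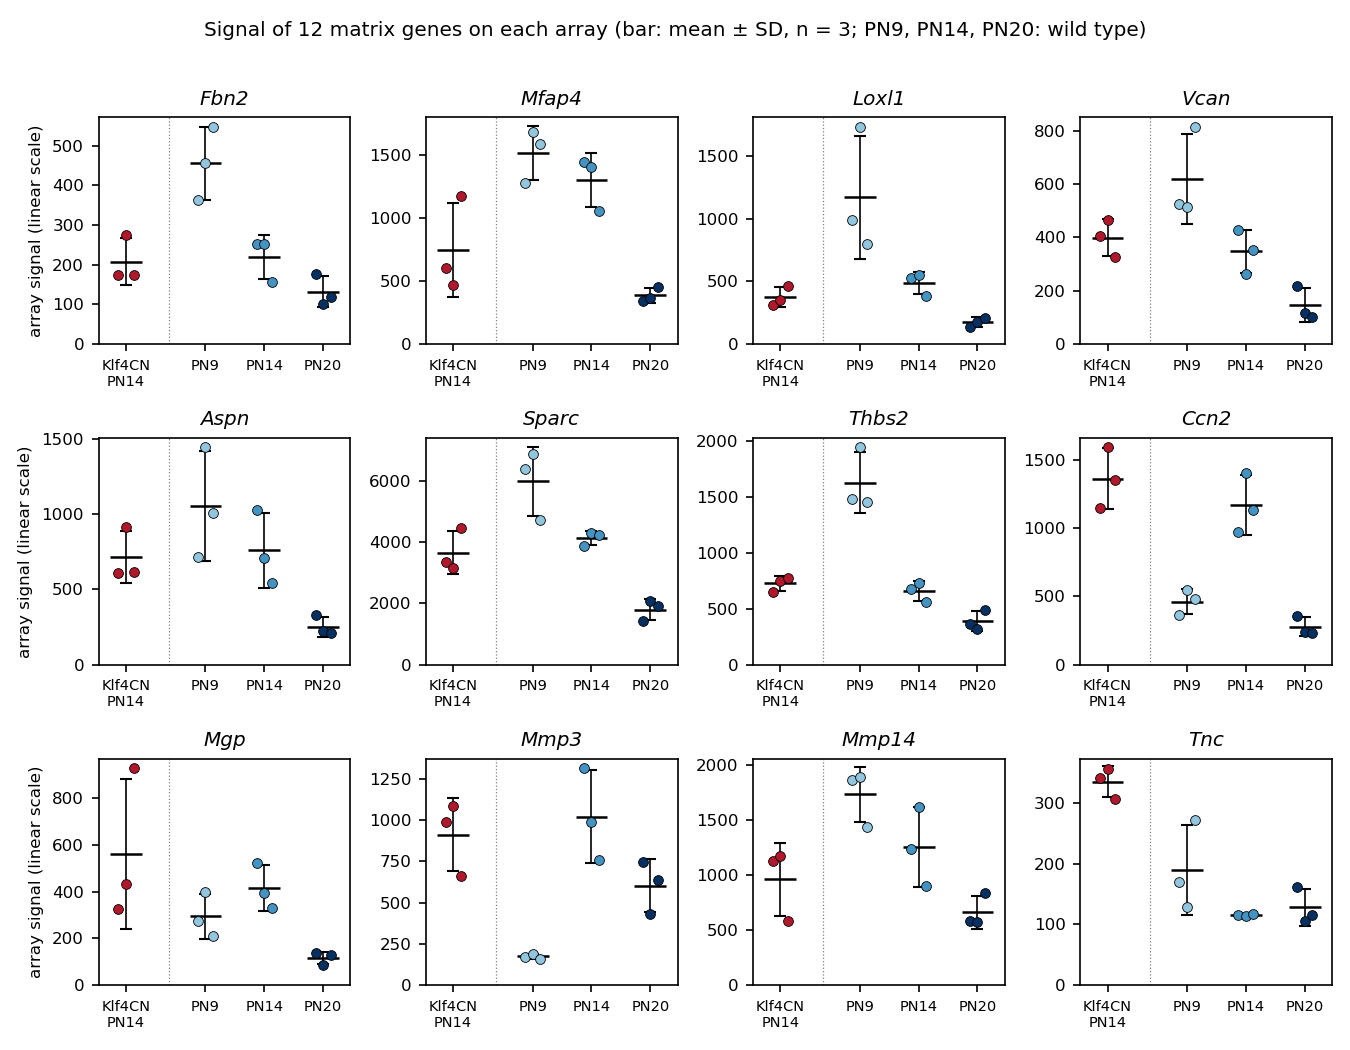
Signal of 12 of the genes on each array (linear axis from 0, arbitrary units), with Klf4CN at PN14 left of the dotted line and wild type at PN9, PN14 and PN20 right of it (bar and whiskers: mean ± SD, n = 3). Mfap4, Sparc and Aspn are lowest on the 3 PN20 arrays, Ccn2 is highest at PN14 among the wild-type ages, Mmp3 is lowest at PN9, and the 3 Klf4CN arrays for Tnc lie above all others.

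Among the 10 adhesive and matricellular genes, 7 fell from PN9 to PN20. Of these, Fn1, Sparc and Thbs2 stayed called with the actin ratio as a covariate, and Postn, Ccn2, Mgp and Serpinf1 did not. The later calls of Postn and Mgp ended in that fit as well. Thbs2, a thrombospondin whose loss in mice disturbs collagen fibrils, read 1481, 1944 and 1457 at PN9, 677, 731 and 562 at PN14 and 362, 316 and 488 at PN20. No 2 ages overlapped. It fell 2.44-fold (log2 change -1.28 ± 0.20, limma adjusted p = 0.00369) over the earlier step, the largest fall of the 39 genes there, and its call held with each array left out but ended with the actin ratio as a covariate (log2 change -1.33, limma adjusted p = 0.0719). Sparc, a calcium-binding glycoprotein that handles secreted collagen, read 6403, 6883 and 4731 at PN9, 3886, 4308 and 4232 at PN14 and 1423, 2074 and 1907 at PN20. The ages were separate, with the gap to PN20 the larger. Sparc fell 2.31-fold (log2 change -1.21 ± 0.20, limma adjusted p = 0.0135) over the later step. Fn1, fibronectin, the fibril-forming ligand of integrins, read 1986, 2506 and 2719 at PN9, 2256, 2372 and 1857 at PN14 and 1183, 817 and 1039 at PN20. The PN9 and PN14 arrays overlapped, and PN20 lay below both. Fn1 fell 2.13-fold (log2 change -1.09 ± 0.19, limma adjusted p = 0.0166) over the later step, when Postn, periostin, a partner of integrins and collagen, also fell 1.85-fold (log2 change -0.89 ± 0.19, limma adjusted p = 0.0405). Postn read 9137, 13303 and 7951 at PN9, 7043, 8415 and 6942 at PN14 and 3973, 4456 and 3651 at PN20, with PN20 below both overlapping earlier ages.

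Serpinf1, pigment epithelium-derived factor, a secreted serpin that restrains vessel growth, read 1198, 2009 and 1071 at PN9, 1332, 956 and 816 at PN14 and 604, 442 and 490.2 at PN20, with PN20 below the rest. It fell 2.65-fold (log2 change -1.41 ± 0.25, limma adjusted p = 0.00167) from PN9 to PN20. Tnc, tenascin-C, read 169.8, 129 and 273 at PN9, 115, 114 and 117 at PN14 and 163, 106 and 115 at PN20 and was not called with age (log2 change -0.48 from PN9 to PN20, limma adjusted p = 0.159). Thbs1, thrombospondin-1, an activator of TGF-beta, had on its brightest probe set no Present call at any wild-type age, where it read 22.8 to 50.1, and 2 in Klf4CN. Its other kept probe set was Present on 1, 2 and 3 arrays at PN9, PN14 and PN20 and on 3 in Klf4CN. That probe set had a log2 change of 0.54 from PN9 to PN20, against -0.41 on the brightest. On the brightest, Thbs1 is among the 29 members whose PN20 arrays lay below all PN9 arrays. With 1 array left out, the later calls ended for Sparc without PN14 replicate 1 or 2 or any PN20 array (adjusted p up to 0.0746), Fn1 without PN14 replicate 1 or 2 or PN20 replicate 2 or 3 (adjusted p up to 0.104) and Postn without Klf4CN replicate 1, PN9 replicate 1, any PN14 array or any PN20 array (adjusted p up to 0.16).

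Ccn2, a CCN family protein induced by TGF-beta and by YAP, was highest at PN14 among the wild-type ages. It read 365, 543 and 478 at PN9, 972, 1404 and 1137 at PN14 and 356, 237 and 233 at PN20. Every PN14 array lay above every PN9 and PN20 array. Ccn2 rose 2.49-fold (log2 change 1.31 ± 0.23, limma adjusted p = 0.00658) over the earlier step and fell 4.1-fold (log2 change -2.04 ± 0.23, limma adjusted p = 0.00244) over the later, and both calls held with each array left out. With the actin ratio as a covariate the earlier call ended (log2 change 1.14, limma adjusted p = 0.161). Its later step differed from its earlier by -3.35 ± 0.39 on the log2 scale (limma adjusted p = 0.00899) and this call held with each array left out. From PN9 to PN20 it fell 1.65-fold (log2 change -0.72 ± 0.23, limma adjusted p = 0.0333), a call that ended without PN9 replicate 2 or 3 or PN20 replicate 2 or 3 (adjusted p up to 0.125). Mgp, matrix Gla protein, the calcification inhibitor of vessels and cartilage, read 273, 400.4 and 210.2 at PN9, 521, 393 and 329 at PN14 and 136, 84.6 and 127 at PN20. PN9 and PN14 overlapped, and PN20 was lower than both. Mgp fell 3.27-fold (log2 change -1.71 ± 0.34, limma adjusted p = 0.0309) over the later step, a call that ended without any PN14 array or any PN20 array (adjusted p up to 0.141), and 2.32-fold (log2 change -1.21 ± 0.34, limma adjusted p = 0.0196) from PN9 to PN20, a call that ended without PN9 replicate 1 or 2 or PN20 replicate 2 (adjusted p up to 0.0888). Ccn1, the nearest CCN relative, read 98.5, 195 and 214 at PN9, 456, 341 and 144 at PN14 and 60.7, 84.2 and 149 at PN20, with overlapping ages and no call on the probe set used.

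The summed signals of skeletal muscle genes and of myeloid and mast cell genes were also highest at PN14 among the wild-type ages. Of 14 skeletal muscle genes 6 rose over the earlier step, with a median log2 change of 2.996. Over the later step their median was -1.94 with 0 called by limma, and 9 of the 14 were lower at an unadjusted p under 0.05. Of all genes 4.34% were called higher over the earlier step and 0.678% lower over the later, where 8.28% were lower at an unadjusted p under 0.05. The skeletal muscle sum was 395 to 15519 at PN9, 21310.0 to 34667 at PN14 and 4137 to 17457 at PN20. For 12 myeloid and mast cell genes the sum was 3135 to 3227, 3744 to 4835.5 and 2694 to 3548 at those ages. Of those 12 genes limma called 2 higher and 0 lower over the earlier step, and 0 higher and 1 lower over the later. Of 10 mural and smooth muscle genes 4 fell over the later step, among them Myh11, smooth muscle myosin (log2 change -1.98 ± 0.29, limma adjusted p = 0.0107), and Tagln, an actin-binding protein of smooth muscle (log2 change -1.90 ± 0.43, limma adjusted p = 0.0475). The part of these cells in the values of Ccn2 and Mgp was not tested.

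Among the 7 genes of proteases and inhibitors, 3 of the 4 proteases were called with age and none of the 3 inhibitors. Mmp3, stromelysin-1, which cuts proteoglycans, fibronectin and laminin, read 171, 189 and 160.4 at PN9, 1317, 991 and 756 at PN14 and 745, 429 and 636 at PN20. The 3 PN9 arrays lay far below all others, and the PN20 arrays lay between PN9 and PN14. Mmp3 rose 5.35-fold (log2 change 2.42 ± 0.26, limma adjusted p = 0.00035) over the earlier step, the largest rise of the 39 genes, and its later step was not called (log2 change -0.74 ± 0.26, limma adjusted p = 0.154). At PN20 it was 3.19-fold (log2 change 1.68 ± 0.26, limma adjusted p = 0.000595) higher than at PN9, a call that ended with the actin ratio as a covariate. Its later step differed from its earlier by -3.16 ± 0.45 on the log2 scale (limma adjusted p = 0.0151), a call that ended without PN14 replicate 1 or 2 (adjusted p up to 0.092). That test called 4 members without Klf4CN replicate 3, with Mfap4 and Mgp added (adjusted p = 0.0483 and 0.0325 in limma), and 1 without PN14 replicate 1 or 2. Among all genes it called 155, 1 and 4 in those fits, against 24 with every array.

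Mmp14, a membrane-bound metalloproteinase that activates the Mmp2 proenzyme, read 1861, 1896 and 1441 at PN9, 1241, 1621 and 899.8 at PN14 and 578, 573 and 834 at PN20. PN20 lay below both earlier ages. Mmp14 fell 2.6-fold (log2 change -1.38 ± 0.28, limma adjusted p = 0.00365) from PN9 to PN20. Mmp2, gelatinase A, read 5214, 4969 and 4702 at PN9, 3810.2, 3992 and 2701 at PN14 and 1895, 3056 and 2021 at PN20, with PN9 above the rest. It fell 2.17-fold (log2 change -1.12 ± 0.23, limma adjusted p = 0.00344) from PN9 to PN20. For both Mmp14 and Mmp2 the call ended with the actin ratio as a covariate. Adamts1, a protease that cuts versican and aggrecan, averaged 92.2 ± 31.9 at PN9, 154 ± 37.3 at PN14 and 158 ± 74.4 at PN20 (SD, n = 3), and its difference between PN20 and PN9 was not called (log2 change 0.65 ± 0.29, limma adjusted p = 0.123). Timp2, an inhibitor that also helps activate Mmp2, read 2406, 936 and 3359.8 at PN9, 2055, 2034 and 2037 at PN14 and 2663, 2479 and 1753 at PN20, with overlapping ages. The inhibitors Timp1, Timp2 and Timp3 had log2 changes of -0.35, 0.20 and -0.14 from PN9 to PN20, with 95% intervals of -0.80 to 0.11, -0.54 to 0.94 and -0.67 to 0.40. Pdgfra, the receptor that marks many fibroblasts, read 1112, 972 and 957 at PN9, 1106, 1031 and 748 at PN14 and 815, 643 and 713 at PN20. All PN20 arrays were below all PN9 arrays, but the difference missed the threshold (log2 change -0.48 ± 0.19, limma adjusted p = 0.0789).

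Some genes of the same pathways outside the 39, in lists also chosen with earlier results of these data known, were lower as well. From PN9 to PN20 limma called 5 of 11 other elastic fibre genes lower, 4 of 15 other proteoglycan and hyaluronan genes, 11 of 24 other glycoprotein and matricellular genes, 6 of 14 other proteases and inhibitors and 7 of 12 other collagen-processing enzymes, with 0 higher in each. Of all genes 10.8% were called lower and 13.5% higher. The median log2 changes of the 5 lists were -0.53, -0.18, -0.67, -0.58 and -0.66 in that order, and 5 of the 15 proteoglycan and hyaluronan genes changed upward. At an unadjusted p under 0.05 in limma, the numbers higher were 0, 2, 2, 1 and 0 in that order. Among those that fell were Ltbp2, a microfibril protein (log2 change -2.19 ± 0.33, limma adjusted p = 0.000575), Acan, the cartilage proteoglycan aggrecan (log2 change -2.46 ± 0.44, limma adjusted p = 0.00151), and Tnxb, tenascin-X (log2 change -1.89 ± 0.35, limma adjusted p = 0.00194). Bmp1, the procollagen C-proteinase that Pcolce helps, also fell (log2 change -1.28 ± 0.19, limma adjusted p = 0.000533), as did Plod1, a lysyl hydroxylase (log2 change -1.53 ± 0.22, limma adjusted p = 0.000389). Of 13 genes of TGF-beta and YAP signalling 3 fell from PN9 to PN20 (Tgfbr2, Tgfb2 and Tgfb3), with a median log2 change of -0.10 over the list. The list mixes ligands, receptors and effectors with response genes, so it does not measure the response to either pathway. Limma called 0 of them over either step, with 1 lower over the earlier and 2 lower over the later at an unadjusted p under 0.05.

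In Klf4CN, 1 of the 39 genes differed from wild type at PN14. Tnc, tenascin-C, a large glycoprotein of developing and wounded matrix, read 342, 357 and 308 in Klf4CN, against 115, 114 and 117 in wild type at PN14. The 3 Klf4CN arrays were close together and also lay above every PN9 and PN20 array. Tnc rose 2.67-fold (log2 change 1.42 ± 0.24, limma adjusted p = 0.0304), where 0.0777% of all genes were called higher and 0.106% lower. The call ended without Klf4CN replicate 1 or 2, PN9 replicate 1, any PN14 array or PN20 replicate 2 or 3 (adjusted p up to 0.197), in which fits 0 members were called, and also with the actin ratio as a covariate, with only the Klf4CN and PN14 arrays fitted, and with the mean of all kept probe sets. Without Klf4CN replicate 3, the array that correlated least with its group, Tnc stayed called and Mfap4 was called lower as well (log2 change -1.25, limma adjusted p = 0.025). A dimmer Tnc probe set, Present on 1 Klf4CN array and on 0 PN14 arrays, had a log2 change of 0.01. The Tnc bases printed above hold no CACCC, which 45.5% of all windows hold, and whether Klf4 acts on Tnc was not tested.

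The other 38 genes had no call in Klf4CN with all arrays in the fit. At an unadjusted p under 0.05 in limma, 2 of the 39 were higher, Tnc and Ltbp1, and 2 lower, Mfap4 and Mmp2, which 4.6% and 3.99% of all genes reached. Ltbp1 read 399.8, 525 and 517 in Klf4CN, against 394, 320.2 and 260.3 in wild type at PN14, with every Klf4CN array higher (log2 change 0.55 ± 0.20, limma adjusted p = 0.449). Mfap4 read 603, 464 and 1168 in Klf4CN, against 1439, 1399 and 1052 in wild type at PN14, with Klf4CN replicate 3 inside the wild-type range (log2 change -0.88 ± 0.28, limma adjusted p = 0.355). Mmp2 read 1863, 1904 and 2842 in Klf4CN, against 3810.2, 3992 and 2701 in wild type at PN14, again with Klf4CN replicate 3 inside the wild-type range (log2 change -0.67 ± 0.23, limma adjusted p = 0.41). The arrays did not overlap for 6 members that were higher in Klf4CN (Adamts1, Ltbp1, Serpinh1, Thbs1, Timp1 and Tnc) and 1 that was lower (Postn), where 6.47% and 6.63% of all genes did so.

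For 30 of the 39 genes the 95% interval of the difference lay within 1 log2 unit, a 2-fold change, on either side of 0. The 9 whose interval reached beyond it were Tnc, Mfap4, Mmp2, Mmp14, Adamts1, Fbln1, Mfap2, Ccn1 and Mgp. Among genes called with age, some had intervals that held 0, such as Thbs2 at -0.29 to 0.58, Ccn2 at -0.27 to 0.71 and Mmp3 at -0.70 to 0.40. Those of Mfap4, at -1.48 to -0.28, and Mmp2, at -1.16 to -0.18, lay below 0. The median log2 difference of the 39 was -0.02, beside -0.11 for fibroblast identity genes and 0.02 for stromal collagens, lists in which limma called 0 genes (at an unadjusted p under 0.05, 1 lower of the 18 and 1 lower and 1 higher of the 13). The summed signal of the fibroblast identity genes was 15129 to 19073 in Klf4CN and 17366 to 21369 in wild type at PN14. Other lists set Klf4CN replicate 3 apart from replicates 1 and 2. Its summed signal was 54915 for skeletal muscle (21800 and 21465 on the others) and 20826 for mural and smooth muscle genes (10693 and 9774). For epithelial markers it was 27633 (42739 and 45970), below the 37783 to 55048 of wild type at PN14. The part of cell makeup in the Klf4CN values was not tested.

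**Figure D5:**
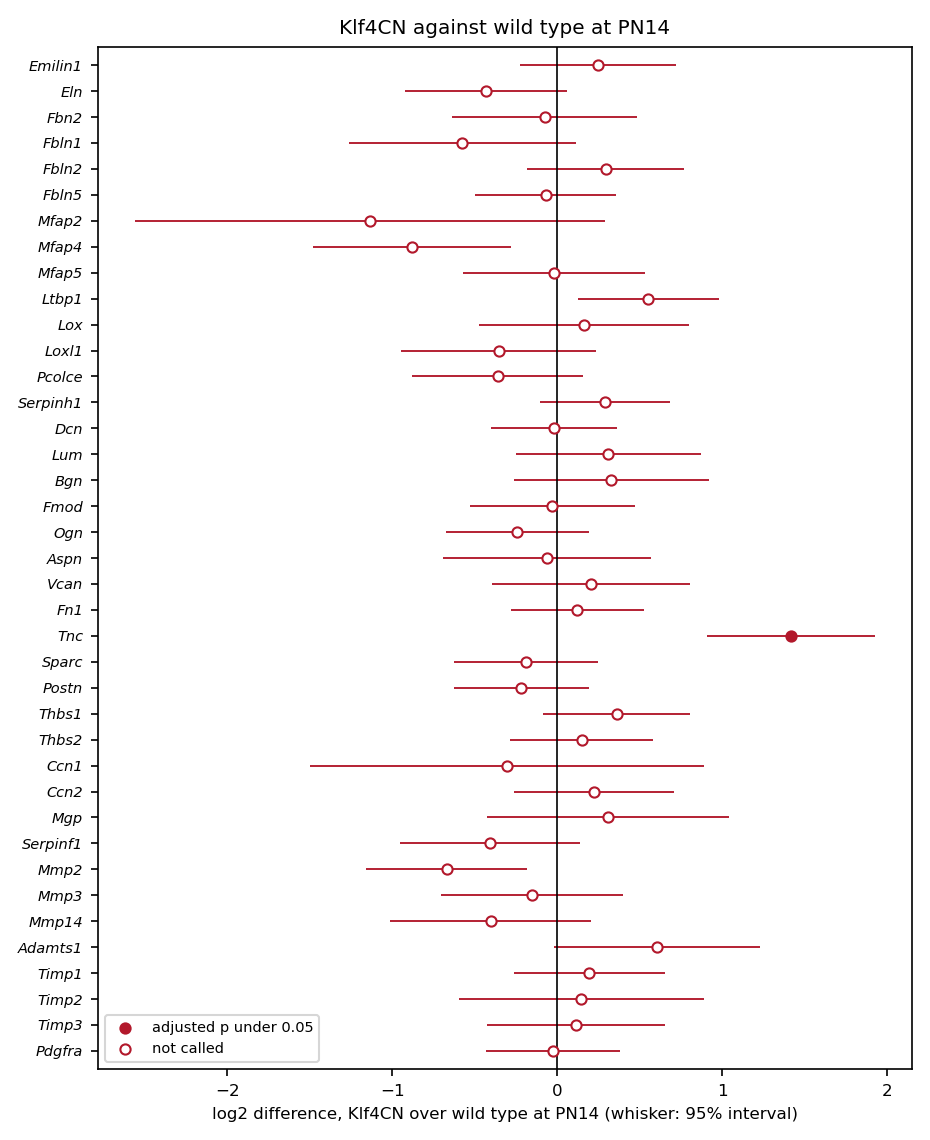
Log2 difference of each measured gene (rows, grouped by role) between Klf4CN and wild type at PN14, with 95% intervals as whiskers and a filled point for an adjusted p under 0.05. Tnc, at 1.42, is the filled point, and most of the other intervals span 0.

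Of the 39 genes 27 had over 1 kept probe set. Where a gene was called from PN9 to PN20, 26 of 28 other probe sets moved the same way, and the exceptions were dim ones of Mmp14 and Vcan. Over the earlier step 8 of 8 did so, and over the later 5 of 6, with a dim Sparc probe set opposed. A bright Sparc probe set changed by -0.50 over the later step, less than the -1.21 of the one used. The other Fbn2 probe set fell more, with a log2 change of -3.34 from PN9 to PN20. Besides those of Mfap2 and Thbs1, probe sets of Fbln1 disagreed, since another, at 98.5 on average at PN14 and 266 at PN20, changed by 1.31 over the later step and by 1.13 in Klf4CN. Those of Ccn1 disagreed too, with log2 differences in Klf4CN of -0.31, -1.26, -1.25 and 0.09. In the same order, their log2 changes were 0.76, -0.17, -0.13 and 1.38 over the earlier step. From PN9 to PN20 they were -0.71, -1.28, -1.15 and 0.385. Loxl2 was left out because its 2 probe sets name 2 genes each.

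The authors' deposited table gives another call for each probe set, which needs Present calls on all 3 arrays of the higher group, groups that do not overlap, means over 2-fold apart and a sum past 5 over 9 array pairs, each scored as an increase or a decrease. In the authors' deposited table there were 7 of the 39 genes lower and 2 higher at PN14 than at PN9, where 2.13% and 3.31% of all genes were. At PN20 against PN14 the authors' deposited table called 12 lower, where 2.05% of all genes were lower and 0.89% higher, and at PN20 against PN9 24 lower and 1 higher, where 7.49% and 6% were. In Klf4CN the authors' deposited table called Tnc higher and no other member, where 0.438% of all genes were higher and 0.508% lower. Over the later step the authors' deposited table also called Ccn1, Lox, Serpinf1 and Vcan, which limma did not, and did not call Fbln5 and Postn.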

How the data were processed

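Per the readme deposited with them, the array intensities came from GCOS 1.4, each array scaled by the authors to a 2% trimmed mean of 150. The deposited scores, namely Present calls per group and sums over array pairs, came from the same software, and a code for the comparisons passed from a formula of the authors in that readme. Probe sets above the 40th percentile of their own array on at least 3 of 12 arrays were kept, controls left out (30600 of 45101). Arrays were scaled to a common median (factors 0.8761 to 1.135), and values taken as log2(signal + 16). The platform annotation gave 34958 probe sets 1 gene symbol, 932 several and 9211 none, and the brightest kept probe set stood for each gene (14163 genes). Limma 3.58.1 in R 4.3.3 was fitted with a mean for each group over the 12 arrays, the prior variance following the mean (8 residual, 6.02 prior degrees of freedom), with Benjamini-Hochberg adjustment over all genes and a threshold of 0.05. The difference of the 2 age steps was tested in the same fit. For a group with no Present call, the fold is a bound, taken against that array's lowest signal of a probe set Present throughout its group where this is higher. The number of arrays limits the precision. Members and lists were chosen with earlier results of these data known. By rule, members called in any comparison or by the F, and the 3 brightest of each role, are given on every array, the rest in less detail, and of each other list at most 4 called genes a comparison, by size of change. Alternatives covered the offset, scaling, filter, probe sets, variance model, arrays fitted, a replicate block, the actin ratio and leaving out each array. No pairing by replicate number was seen, and the check cannot exclude one. Deviations from group means correlated at -0.215 to 0.265 for same-numbered samples and at -0.293 to 0.33 for samples of different number. Promoter windows are from RefSeq.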

Additional observations from a re-analysis of the deposited data

Results flagged for a closer look

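Ccn2 changed in opposite directions over the 2 steps of age, and the test of the difference itself passed. The log2 change from PN14 to PN20 minus that from PN9 to PN14 was -3.35 (limma adjusted p = 0.00899), and the 3 PN14 arrays lay above all 6 arrays of the other wild-type ages. Mmp3 gave -3.16 in the same test (limma adjusted p = 0.0151), with 3 of 3 PN14 arrays above all PN9 arrays and above all PN20 arrays.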

How the results depend on the processing

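Over the 10 alternative settings other than leaving out an array, 19 of the 51 calls of a member in a comparison held in all, and 29 of 51 held whichever array was left out. No change reversed. The members called over the later step numbered 4 with the mean of all kept probe sets and 18 with only the arrays of the groups compared, against 10. With the actin ratio as a covariate they numbered 3 over the earlier step, 12 from PN9 to PN20 and 14 over the 3 ages by limma's F, against 10, 28 and 26, and 0 in Klf4CN against 1. The members' median log2 change from PN9 to PN20 was then -1.18, against -1.21. In Klf4CN 0 were also called with the mean of all kept probe sets and with only the arrays compared. The cause was not tested. With 1 array left out the counts ranged from 4 to 10 over the earlier step, 1 to 17 over the later, 23 to 28 from PN9 to PN20, 0 to 2 in Klf4CN, 1 to 4 for the difference of steps and 25 to 29 over the 3 ages. In that order, all-gene calls ranged over 297 to 2075, 2 to 725, 2090 to 4336, 4 to 71, 1 to 155 and 1602 to 4073. The median log2 change from PN9 to PN20 was -0.97 with the mean of all kept probe sets. With values as deposited, without a common median, the median log2 change of all genes from PN9 to PN20 was -0.11, and that of the members -1.36, or -1.25 relative to it. The share of all calls that were higher was then 48.1% over the earlier step and 40.7% from PN9 to PN20, against 62% and 55.5%. All-gene calls over the later step were 1137 with only the arrays compared, 119 with an untrended variance, 112 with no filter, 106 with the mean of all kept probe sets, 102 with the replicate block and 82 with the actin ratio, against 191. With the actin ratio 47 genes were called over the earlier step, 235 from PN9 to PN20, 210 over the 3 ages and 7 in Klf4CN, against 992, 3443, 2850 and 26, and Klf4CN gave 6 with only the arrays compared. With the replicate number as a block, members called were 9 over the earlier step, 8 over the later, 27 from PN9 to PN20, 1 in Klf4CN, 2 for the difference of steps and 27 over the 3 ages. Dim genes have log2 changes pulled toward 0 by the offset of 16.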
